A study of Mus musculus with 39 samples.

Results

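Interferon response genes are the genes that cells switch on when they sense an interferon. A set of 38 of them was followed in the gastrocnemius, a calf muscle, of C57BL/6 mice while a tumour grew. The members were chosen by name, with earlier results of these data known. They were 4 sensors of nucleic acid, 4 transcription factors, 13 antiviral effectors, 3 genes of the ISG15 system, 6 interferon inducible GTPases and 8 other induced genes. All 38 were found among the 46078 genes of the count files, and all 38 were among the 14689 genes that passed the filter on low counts.

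The tumour groups received Lewis lung carcinoma (LLC) cells, a mouse line used to model cancer cachexia (muscle wasting that accompanies a tumour), in the hind flank at 8 weeks of age, and the controls received phosphate-buffered saline (PBS). Muscle was taken 7, 14, 21 or 28 days later, called weeks 1 to 4 here, and the labels give 0 days for PBS. Libraries numbered 8 at week 1, 7 at week 2, 7 at week 3, 8 at week 4 and 8 in PBS, and week 3 replicate 2 is not analysed here. All groups share the strain, the labels name no genetic change, and 1 transplanted line stands for the tumour. Nothing in the labels says whether the samples of a group came from separate cages or batches of animals, so the spread behind each p-value is that of these samples alone, and age cannot be told apart from time with a tumour. Whole muscle was sequenced, so fewer cells of a type and less RNA per cell cannot be told apart.

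Type I interferons and interferon gamma bind different receptors at the cell surface, and both act through JAK kinases. Type I signals assemble a complex that contains STAT2 and IRF9 and binds the interferon stimulated response element (ISRE), whereas interferon gamma acts through the gamma activated site (GAS). Antiviral effectors such as the Ifit and Oas genes are classic type I targets, and the GTPases of the Gbp and Irg families respond strongly to interferon gamma. In muscle, a rise of these genes is best known from inflammatory myopathy, in which type I interferon targets are induced in fibres.

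The upstream stretches of 6 members are shown because they hold letters of the motifs through which interferons act, and because these genes went in different directions in the tumour-bearing mice. The sequences are RefSeq's, build GRCm38.p6, and run from 250 bases before the gene start up to that start, in the gene's own direction. Isg15 and Rsad2 rose, Ifit1 gave no call, and Ifit3, Gbp3 and Igtp fell by week 4. Capitals mark matches to the ISRE core (GAAA and GAAA with any 2 bases between them) or the GAS letters TTCNNNGAA on either strand.
Isg15: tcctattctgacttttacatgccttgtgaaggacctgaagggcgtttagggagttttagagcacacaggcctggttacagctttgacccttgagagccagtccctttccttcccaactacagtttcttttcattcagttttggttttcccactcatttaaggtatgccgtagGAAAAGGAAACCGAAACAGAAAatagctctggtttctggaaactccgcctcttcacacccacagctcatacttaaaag
Rsad2: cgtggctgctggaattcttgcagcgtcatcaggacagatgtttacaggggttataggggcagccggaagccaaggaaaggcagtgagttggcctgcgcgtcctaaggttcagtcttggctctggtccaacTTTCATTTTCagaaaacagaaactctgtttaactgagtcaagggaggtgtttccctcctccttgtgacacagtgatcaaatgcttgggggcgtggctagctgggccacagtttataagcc
Ifit1: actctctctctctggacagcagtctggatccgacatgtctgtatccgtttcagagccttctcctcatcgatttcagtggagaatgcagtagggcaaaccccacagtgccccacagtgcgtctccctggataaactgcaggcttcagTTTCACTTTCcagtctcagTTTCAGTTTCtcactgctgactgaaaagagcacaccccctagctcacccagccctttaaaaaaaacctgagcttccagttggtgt
Ifit3: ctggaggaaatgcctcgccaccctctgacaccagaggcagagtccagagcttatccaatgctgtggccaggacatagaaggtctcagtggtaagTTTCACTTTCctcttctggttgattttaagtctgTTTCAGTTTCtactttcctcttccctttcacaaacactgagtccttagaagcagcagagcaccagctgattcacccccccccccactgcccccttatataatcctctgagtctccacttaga
Gbp3: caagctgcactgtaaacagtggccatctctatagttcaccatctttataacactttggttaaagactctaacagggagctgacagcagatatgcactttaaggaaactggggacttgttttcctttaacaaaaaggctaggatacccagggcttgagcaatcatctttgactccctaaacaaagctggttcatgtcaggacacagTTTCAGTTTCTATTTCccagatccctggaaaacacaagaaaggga
Igtp: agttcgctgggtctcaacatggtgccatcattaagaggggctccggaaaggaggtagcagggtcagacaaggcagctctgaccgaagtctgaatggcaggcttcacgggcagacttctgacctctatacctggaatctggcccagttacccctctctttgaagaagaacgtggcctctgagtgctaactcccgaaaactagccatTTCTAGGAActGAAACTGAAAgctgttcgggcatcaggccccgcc
Isg15 lies at chr4:156200819-156201068 (minus strand), Rsad2 at chr12:26456453-26456702 (minus), Ifit1 at chr19:34640639-34640888 (plus), Ifit3 at chr19:34583279-34583528 (plus), Gbp3 at chr3:142559794-142560043 (plus) and Igtp at chr11:58199306-58199555 (plus). Isg15 holds 3 overlapping ISRE cores that begin 78, 72 and 66 bases before its start, and Rsad2 holds 1 that begins 120 bases before it. Ifit1, Ifit3 and Gbp3 hold 2 cores each, those of Gbp3 overlapping, and Igtp holds 1 GAS followed closely by 1 ISRE core. RefSeq windows of 300 bases (250 before the start and 50 after) were matched by symbol for 27 of the 38 members, with 33 windows in all. An ISRE core stood in 15 of these windows, 45.5%, against 3.44% of all 32851 windows, and GAS letters stood in 9, 27.3%, against 8.3% of all windows. A match is a description of letters and not a bound site. The 11 members not matched were Dhx58, Zbp1, Mx1, Mx2, Oas2, Usp18, Iigp1, Ifi27, Ifi27l2a, Rtp4 and Parp14.

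All members were measured at low levels. Values are CPM, gene counts scaled by the size of the library, and per kilobase of exon the mean over all libraries ran from 0.157 CPM for Mx1 to 19.4 CPM for Ifi27l2a. Ifi27, another small induced membrane protein, followed at 11.9 CPM per kilobase, and Bst2 (tetherin, which holds budding virus at the cell surface) at 10.1. The 4 sensors stood between 0.236 and 0.973 CPM per kilobase, the 4 transcription factors between 1.24 and 2.52, and the 6 GTPases between 2.40 and 5.47. Isg15 had as few as 9 reads in a library, and Oas1a and Mx2 had 0 in some, so changes of the lowest genes are the least precise.

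**Figure D1:**
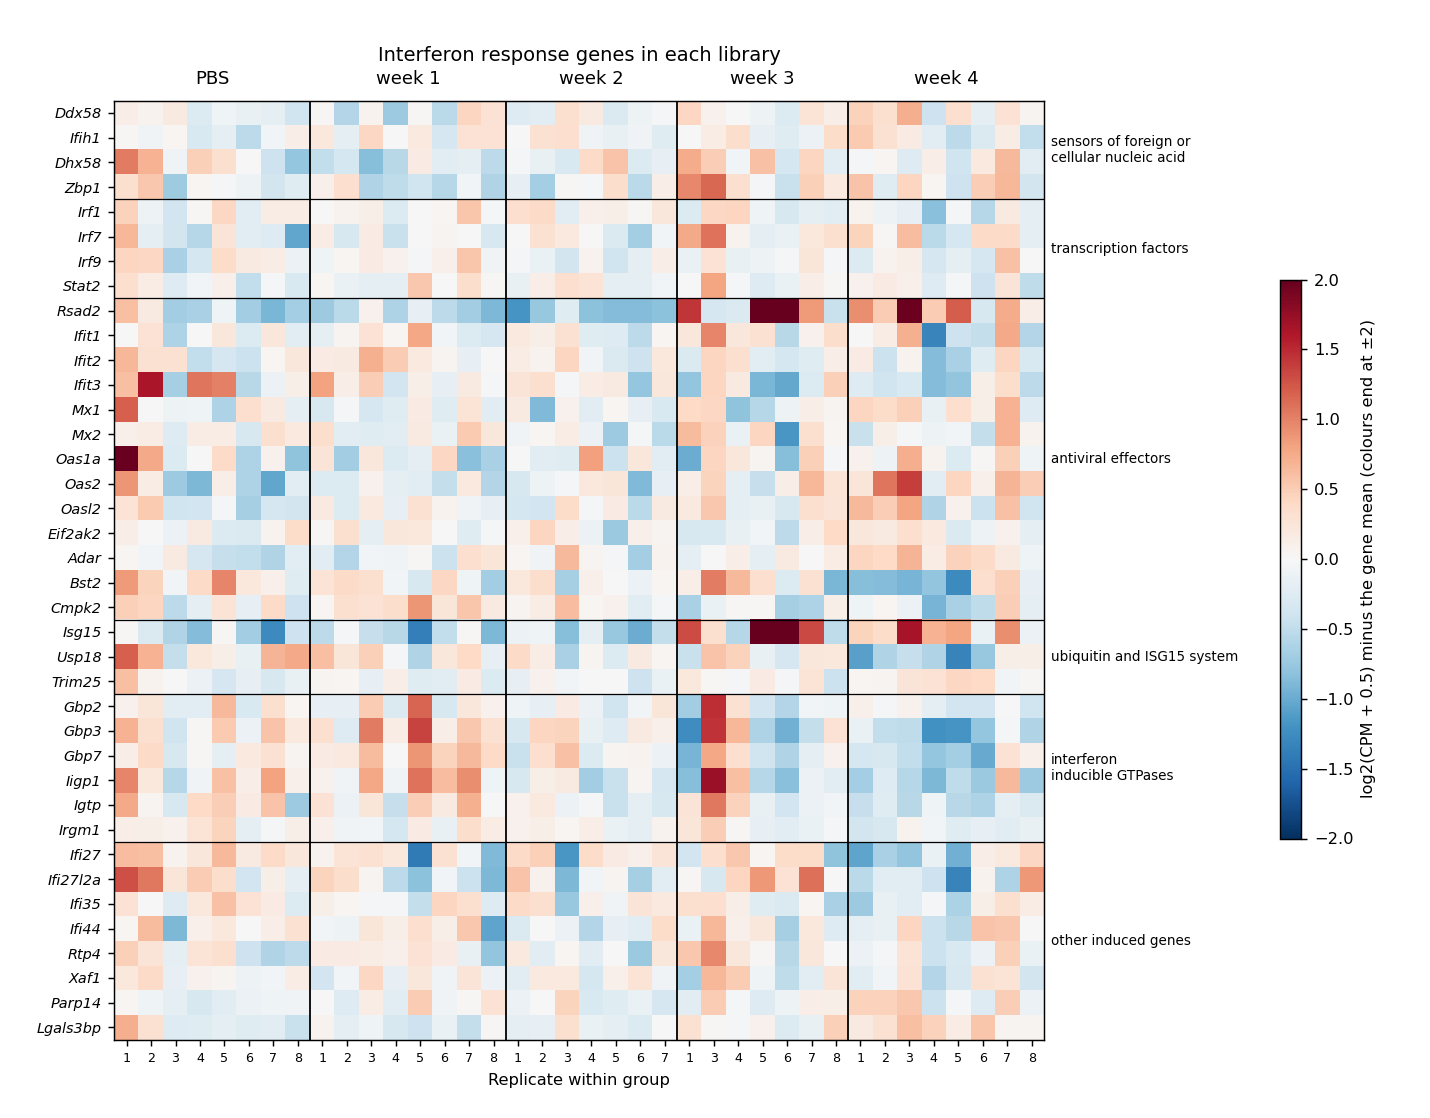
Each row is 1 of the 38 members and each column 1 library, with colour for log2(CPM + 0.5) minus the gene's mean over all libraries and colours ending at ±2. Rsad2 and Isg15 are dark red in week 3 replicates 5 and 6, while the GTPases are red in week 3 replicate 3 and blue in most week 4 libraries.

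No member was called in the first weeks. At week 1 against PBS, edgeR's quasi-likelihood test with Benjamini-Hochberg adjustment called 0 of 38 members, against 0.0613% of all genes. At an unadjusted p under 0.05 stood 2 members and 8.67% of all genes. At week 2 it also called 0, against 0.0% of all genes, with 1 member (Ifi27l2a) and 7.78% of all genes at an unadjusted p under 0.05, and DESeq2 called 0 at both weeks. The 2 members at week 1, a share below that of all genes, were Dhx58 and Ifi27l2a. Dhx58 (LGP2, a regulator of RNA sensing) had 0.385, 0.691 and 1.29 CPM as lowest, median and highest at week 1, and 0.426, 1.28 and 2.77 CPM in PBS, with an adjusted p of 0.416 by edgeR. Ifi27l2a had 4.21, 6.94 and 11.4 CPM at week 1 and 6.21, 10.2 and 20.9 CPM in PBS, with an adjusted p of 0.509 by edgeR. The ranges of both genes overlapped widely. At week 2, Ifi27l2a had 4.18, 7.93 and 12.5 CPM and Usp18, the member of next smallest p, had 1.24, 2.31 and 3.06 CPM, against 1.46, 3.25 and 5.70 CPM of Usp18 in PBS, with adjusted p values of 0.625 and 0.661 by edgeR. The median log2 fold change over the members was -0.02 at week 1 and -0.08 at week 2, beside -0.02 at both weeks over all genes tested.

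At week 3, 2 of 38 members were higher than in PBS, Isg15 and Rsad2, against 0.347% of all genes, and no member was lower. Isg15 encodes a ubiquitin-like protein that is attached to other proteins. Its level was 7.05, 3.28, 1.54, 18.7, 19.4, 7.12 and 1.65 CPM in week 3 replicates 1, 3, 4, 5, 6, 7 and 8. In PBS it was 0.757, 1.64 and 2.60 CPM as lowest, median and highest. Of the 7 week 3 libraries 5 stood above every PBS library and 2 lay inside the PBS range. Isg15 averaged 8.39 ± 7.64 CPM at week 3 (SD, n = 7) and 1.72 ± 0.654 CPM in PBS (SD, n = 8), and edgeR's quasi-likelihood test gave a log2 fold change of 2.28 ± 0.41 (SE) with an adjusted p of 0.00319.

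Rsad2 encodes viperin, an enzyme that makes a nucleotide which stops viral RNA synthesis. Its level was 36.5, 10.4, 10.7, 76.5, 124 (replicate 6), 24.2 and 9.59 CPM in the same 7 week 3 libraries. In PBS it was 6.75, 8.14 and 20.3 CPM as lowest, median and highest. Of the week 3 libraries 4 stood above every PBS library, and the 3 others lay within the PBS range. The log2 fold change was 1.94 ± 0.40 (SE), with an adjusted p of 0.0114 by edgeR. Without week 3 replicate 6 the Rsad2 call was lost, at a log2 fold change of 1.36 and an adjusted p of 0.132 by edgeR, while Isg15 was called in 15 of 15 fits that each left out 1 library, at 1.92 to 2.46. Neither gene was called at week 3 with a term for each lane (1.98 and 1.35), in a fit of the 2 groups alone (2.29 and 1.95) or in lane 6, the 1 lane that holds both groups, where 3 libraries stood against 3 (1.03 and 0.45).

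The rise at week 3 was uneven across libraries, and blood cell markers and sequencing lane were uneven with it. The summed level of 6 erythroid markers (globins, Alas2 and Slc4a1) was 344.5 to 14690 CPM over the week 3 libraries and 230.8 to 1270 CPM over PBS, and all 6 markers were higher at week 3. It was 14690 CPM in week 3 replicate 6 and 6154 CPM in replicate 5, the libraries of highest Isg15 and Rsad2. It was 344.5, 491.5 and 504.0 CPM in replicates 8, 3 and 4, the libraries of lowest Rsad2. The summed level of 13 neutrophil markers was 3.71 to 151 CPM at week 3 and 2.20 to 16.5 CPM in PBS, and 6 of the 9 that were tested were higher at week 3. Week 3 replicate 6, the library of highest Isg15 and Rsad2, had the highest neutrophil sum of its group, 151 CPM. Week 3 replicate 5, with 18.7 CPM of Isg15, had 17.7 CPM of neutrophil markers, near the highest PBS library. At week 4, replicate 6 had the highest neutrophil sum of all libraries, 304 CPM, and the lowest Isg15 of its group, 2.26 CPM. Week 3 replicates 5, 6 and 7 were the lane 4 libraries of that week, and lane 4 holds no PBS library. They had 7.12 to 19.4 CPM of Isg15 and 24.2 to 124 CPM of Rsad2. Replicates 1, 3 and 4, in lane 6, had 1.54 to 7.05 and 10.4 to 36.5 CPM. Replicate 8, in lane 2, had 1.65 and 9.59 CPM. The lane 4 libraries of weeks 1 and 2 had 1.29 to 2.48 CPM of Isg15, and those of week 4 had 2.26 to 5.27 CPM. Neither the part of blood cells nor that of lane in the Isg15 and Rsad2 result was tested.

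**Figure D2:**
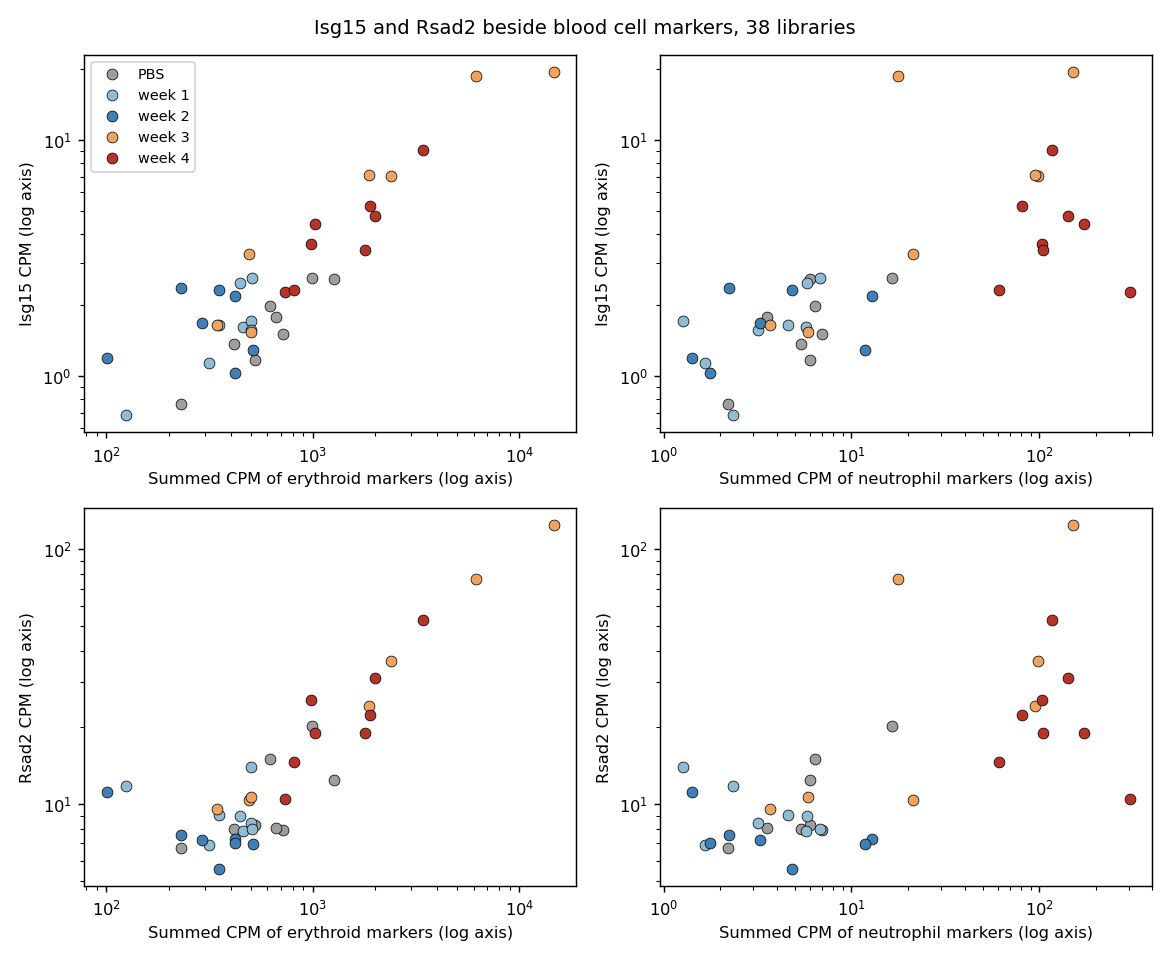
Isg15 (top) and Rsad2 (bottom) in CPM against the summed CPM of erythroid markers (left) or neutrophil markers (right) in all 38 libraries, all axes logarithmic, coloured by group. Libraries above 1270 CPM of erythroid markers are all of weeks 3 and 4, and week 3 replicate 6 is at the top of both left panels.

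No other member was called at week 3, and most members did not peak in the libraries of highest Isg15. Ifit1, which binds viral RNA ends, had 1.86 CPM in week 3 replicate 6 and 3.79 CPM in replicate 5, against 1.78 to 3.75 CPM in PBS. In replicate 6, 17 of 38 members had their lowest value of the week 3 libraries and 3 had their highest. In replicate 3, whose Isg15 was 3.28 CPM and Rsad2 10.4 CPM, 21 of 38 members had their highest week 3 value. These included Stat2 at 19.6 CPM, Irf7 at 10.1 CPM, Ifit1 at 6.38 CPM, Gbp3 at 20.0 CPM and Igtp at 22.5 CPM. In week 3 replicate 3, 44.5% of reads were assigned to genes, the lowest share of the 38 libraries. Over the members the median log2 fold change at week 3 was -0.02, beside -0.01 over all genes.

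At week 4, 11 of 38 members differed from PBS, a share near the 29.4% of all genes that differed, and they split into 4 that were higher (Isg15, Rsad2, Oas2 and Adar) and 7 that were lower (Usp18, Ifit3, Gbp3, Bst2, Ifi27, Igtp and Irgm1). Higher calls made up 15.3% of all genes and lower calls 14.1%. The median log2 fold change was -0.11 over the members and -0.02 over all genes. Every one of the 11 genes overlapped between week 4 and PBS in the values of single libraries. With a term for sequencing lane 2 only Isg15 stayed called, and without the lane 2 libraries no member did. Cell type markers moved at the same time. All 9 neutrophil markers tested were higher at week 4, and the 13 listed summed to 60.8 to 304 CPM at week 4 and 2.20 to 16.5 CPM in PBS, where Mpo was at 0. Higher at week 4 were also 3 of 6 erythroid markers, with sums of 729 to 3395 CPM at week 4 and 230.8 to 1270 CPM in PBS, and 4 of 8 endothelial markers, with sums of 341 to 583 CPM at week 4 and 281 to 370 CPM in PBS. Lower were 4 of 8 muscle fibre markers, with sums of 83090 to 146400 CPM at week 4 and 106000 to 147800 CPM in PBS, and 4 of 8 fibro-adipogenic markers, with sums of 564 to 1093 CPM at week 4 and 649.8 to 1809 CPM in PBS. Of 16 macrophage and monocyte markers tested 1 was higher and 2 lower, with median sums of 280 CPM at week 4 and 156 CPM in PBS. Also called were 2 of 7 pericyte and smooth muscle markers, higher, and 1 of 2 B cell and 1 of 6 adipocyte markers tested, lower. PBS replicate 1 held the lowest muscle fibre sum and the highest fibro-adipogenic and macrophage sums of PBS. The part of these cells in the member values was not tested.

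Among the higher members, Isg15 had 2.26, 4.02 and 9.06 CPM as lowest, median and highest at week 4, against 0.757, 1.64 and 2.60 CPM in PBS, and 6 of 8 week 4 libraries stood above every PBS library. Its log2 fold change was 1.34 ± 0.39 (SE), with an adjusted p of 0.0112 by edgeR. Rsad2 had 10.4, 20.8 and 53.0 CPM at week 4 and 6.75, 8.14 and 20.3 CPM in PBS, a log2 fold change of 1.16 ± 0.38 (SE) with an adjusted p of 0.0206 by edgeR. Without week 4 replicate 3, which also had the highest erythroid sum of its group at 3395 CPM, the Rsad2 value was 0.90 and the call was lost at an adjusted p of 0.0762 by edgeR.

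Oas2, which makes oligoadenylates that activate RNase L, had 4.06, 6.76 and 13.2 CPM at week 4 and 2.06, 3.49 and 9.26 CPM in PBS. Its log2 fold change was 0.82 ± 0.25 (SE), with an adjusted p of 0.0132 by edgeR, and 7 of 8 week 4 libraries lay above the PBS mean. The highest PBS value of Oas2 came from PBS replicate 1, in which 21 of 38 members had their highest PBS value and whose macrophage marker sum was 1259 CPM, far above the median of 156 CPM in PBS. Without that library Oas2 stood at 1.09, and without week 4 replicate 3 at 0.65 with an adjusted p of 0.0493 by edgeR. Adar, which edits adenosine in double-stranded RNA, had 5.34, 7.65 and 9.42 CPM at week 4 and 3.58, 4.67 and 6.52 CPM in PBS. All 8 week 4 libraries lay above the PBS mean, with a log2 fold change of 0.60 ± 0.15 (SE) and an adjusted p of 0.00452 by edgeR. Adar overlaps Chrnb2 on the opposite strand and Oas2 overlaps Gm43068, and since the strand setting of the counting is not given, reads of such pairs cannot be told apart.

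**Figure D3:**
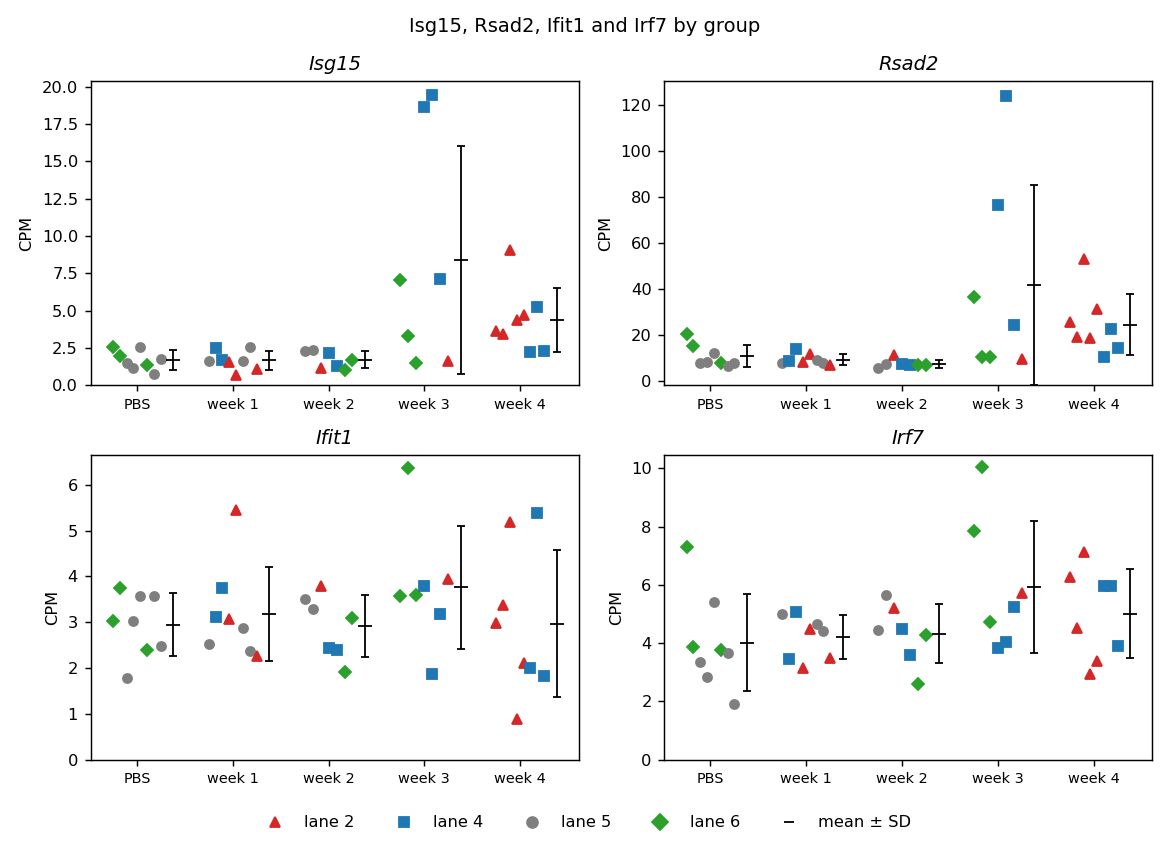
CPM of Isg15, Rsad2, Ifit1 and Irf7 in each library by group, with shape and colour for the sequencing lane, and mean ± SD at the right of each group. Isg15 reaches 19.4 CPM and Rsad2 124 CPM at week 3, whereas Ifit1 and Irf7 of week 4 lie mostly within the PBS range.

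Usp18, the protease that removes ISG15 from proteins and damps the type I receptor, fell by week 4. It had 0.577, 1.29 and 2.45 CPM at week 4 and 1.46, 3.25 and 5.70 CPM in PBS. All 8 week 4 libraries lay below the PBS mean, and 5 lay below every PBS library. The log2 fold change was -1.19 ± 0.27 (SE), with an adjusted p of 0.002 by edgeR. The call held in 16 of 16 fits that left out 1 library, but was lost with a lane 2 term and without the lane 2 libraries. In the fit with group alone, Isg15 and its protease Usp18 thus went in opposite directions. Trim25, a ubiquitin ligase that activates RNA sensing, averaged 26.8 CPM at week 4 and 23.1 CPM in PBS and was not called.

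Of the 6 interferon inducible GTPases, which attack the vacuoles of intracellular microbes, 3 were lower at week 4 and none was higher, and the median log2 fold change of the 6 was -0.54. Of all genes, 14.1% were lower and 15.3% higher. None of the 3 calls held with a lane 2 term or without the lane 2 libraries. Igtp had 6.69, 8.09 and 9.91 CPM at week 4 and 6.18, 13.0 and 18.2 CPM in PBS, a log2 fold change of -0.64 ± 0.19 (SE) with an adjusted p of 0.0117 by edgeR. Week 4 values of Igtp were low and tightly grouped, whereas PBS values spread widely. Gbp3 had 2.77, 4.65 and 6.94 CPM at week 4 and 5.23, 8.53 and 11.7 CPM in PBS, and 6 of 8 week 4 libraries lay below every PBS library. Its log2 fold change was -0.89 ± 0.29 (SE), with an adjusted p of 0.0218 by edgeR, and the call was lost without week 4 replicate 5, at -0.81 and an adjusted p of 0.0524. Irgm1 fell by 0.31 on the log2 scale, to 15.8 ± 1.63 CPM at week 4 (SD, n = 8) against 19.7 ± 2.71 CPM in PBS (SD, n = 8), with an adjusted p of 0.0214 by edgeR that was lost as a call without PBS replicate 5, at 0.0602. The 3 uncalled GTPases had log2 fold changes of -0.25 (Gbp2), -0.45 (Gbp7) and -0.75 (Iigp1, adjusted p of 0.0524 by edgeR). The Gbp genes are close paralogs and Igtp overlaps Irgm2, so reads that match several of them may be missing from the counts. Reads set aside as not uniquely aligned made up 7.47 to 27.8% of a library, and ambiguous reads 2.78 to 11.0%.

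Of the 13 antiviral effectors 3 were higher and 2 lower at week 4, Ifit3 and Bst2, and of the 8 other induced genes only Ifi27 was called, lower. The shares of all genes were 15.3% higher and 14.1% lower, and none of these calls held with a lane 2 term. Ifit3, a partner of Ifit1, had 1.49, 2.34 and 4.12 CPM at week 4 and 1.78, 4.18 and 10.8 CPM in PBS, a log2 fold change of -0.99 ± 0.31 (SE) with an adjusted p of 0.0148 by edgeR. Without PBS replicate 2, which held the highest Ifit3 value, the log2 fold change was -0.72 and the call was lost at an adjusted p of 0.0641 by edgeR. Bst2 had 3.20, 4.58 and 11.9 CPM at week 4 and 7.03, 10.5 and 17.1 CPM in PBS, a log2 fold change of -0.81 ± 0.25 (SE) with an adjusted p of 0.0151 by edgeR. Ifi27 had 7.66, 12.6 and 22.1 CPM at week 4 and 17.4, 20.4 and 26.1 CPM in PBS, a log2 fold change of -0.66 ± 0.24 (SE) with an adjusted p of 0.0365 by edgeR. Ifi27 was called in 9 of 16 fits that left out 1 library, and not without week 4 replicate 1, 2, 3 or 5 or PBS replicate 1, 2 or 5, where the adjusted p reached 0.0853 and the log2 fold change was -0.57 at the smallest.

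**Figure D4:**
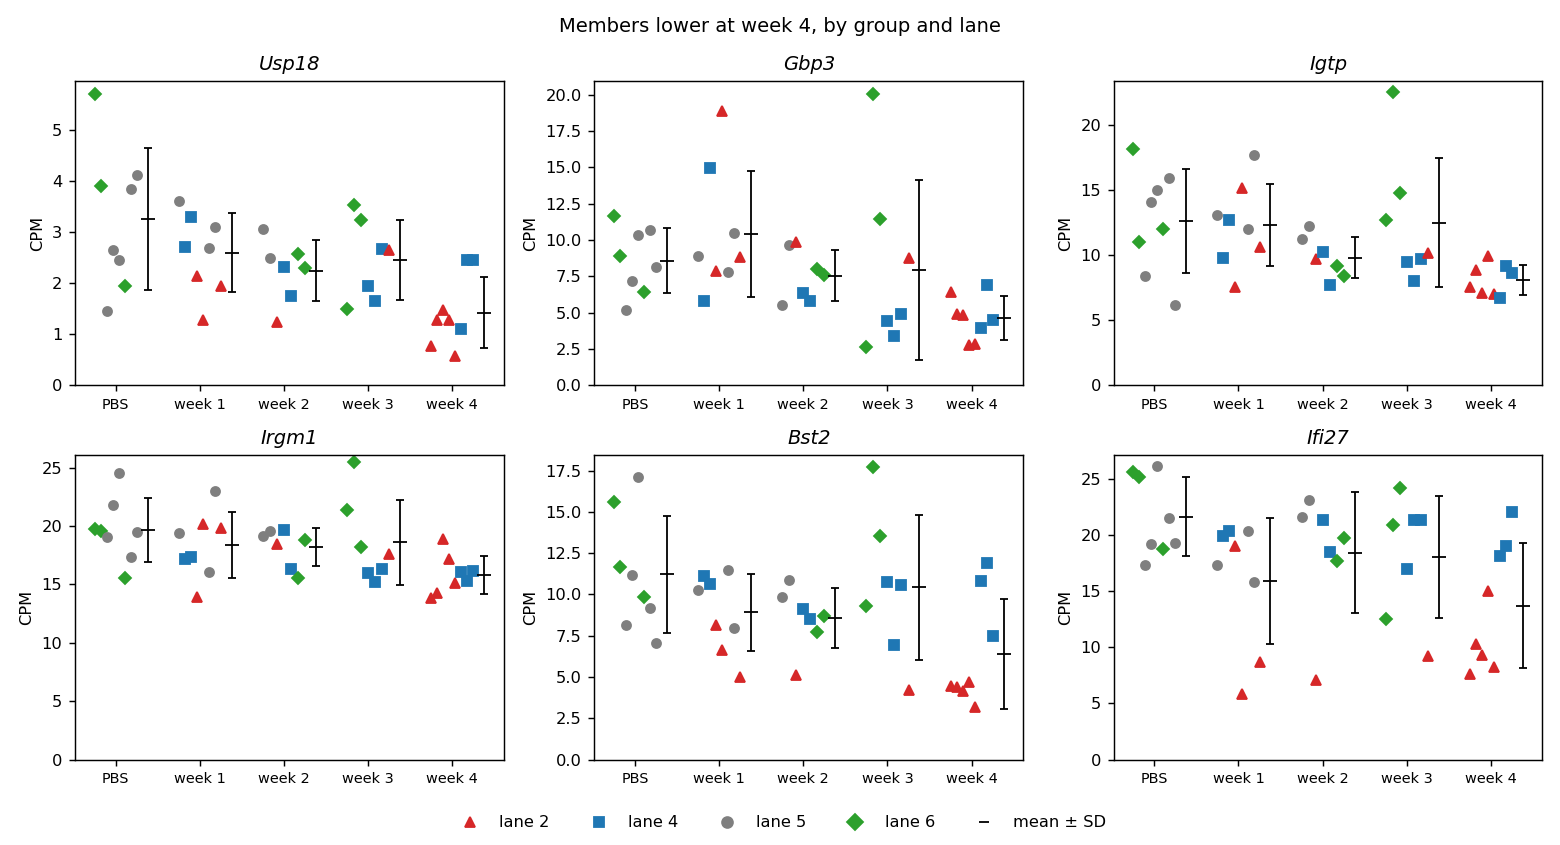
CPM of 6 members that were lower at week 4, in each library by group, with shape and colour for the lane, and mean ± SD at the right of each group. The 5 lane 2 libraries of week 4 are the lowest of that group for Bst2 and Ifi27, and those of week 1 hold 5.01 to 8.15 CPM of Bst2.

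The core of the pathway was not called at week 4. Stat2 had 7.70, 11.4 and 13.3 CPM at week 4 and 7.77, 10.7 and 14.2 CPM in PBS, a log2 fold change of -0.0039 ± 0.15 (SE). Irf7, which amplifies type I interferon production, had 2.92, 5.23 and 7.13 CPM at week 4 and 1.92, 3.71 and 7.31 CPM in PBS, with an adjusted p of 0.28 by edgeR. Irf1, an early target of interferon gamma, had 5.25, 8.89 and 11.1 CPM at week 4 and 7.38, 10.4 and 13.6 CPM in PBS, with an adjusted p of 0.155 by edgeR. Ifit1 had 0.892, 2.55 and 5.38 CPM at week 4 and 1.78, 3.02 and 3.75 CPM in PBS, a log2 fold change of 0.01 ± 0.26 (SE). Among the 4 sensors none was called, with log2 fold changes from -0.32 to 0.35. Irf7 overlaps Phrf1 on the opposite strand and Irf9 overlaps Rnf31.

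Sequencing lane moved with week. The PBS libraries came from lanes 5 and 6 and the week 4 libraries from lanes 2 and 4, so no lane holds both groups, and the lane was read from each library's file label. In a fit with a term for lane 2, 1 of 38 members was called at week 4, Isg15 at 1.64 ± 0.48 (SE) with an adjusted p of 0.0358 by edgeR, against 5.64% of all genes. Without the lane 2 libraries, which leaves 3 at week 4, 0 members were called against 0.894% of all genes, and Isg15 stood at 0.91. Usp18 was -0.83, Gbp3 -0.96 and Igtp -0.55 with the lane 2 term, and Oas2 was 0.78. Bst2 and Ifi27 moved most with that term, to -0.31 and -0.12. At week 4, Bst2 was 3.20 to 4.71 CPM in the 5 lane 2 libraries and 7.51 to 11.9 CPM in the 3 lane 4 libraries, and Ifi27 was 7.66 to 15.01 CPM in lane 2 and 18.1 to 22.1 CPM in lane 4. Over all groups, lane 2 itself was lower for 5 of 38 members (Bst2, Ifi27, Ifi27l2a, Usp18 and Ifi35), against 18.5% of all genes, and higher for 1, Adar, against 16.5% of all genes.

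**Figure D5:**
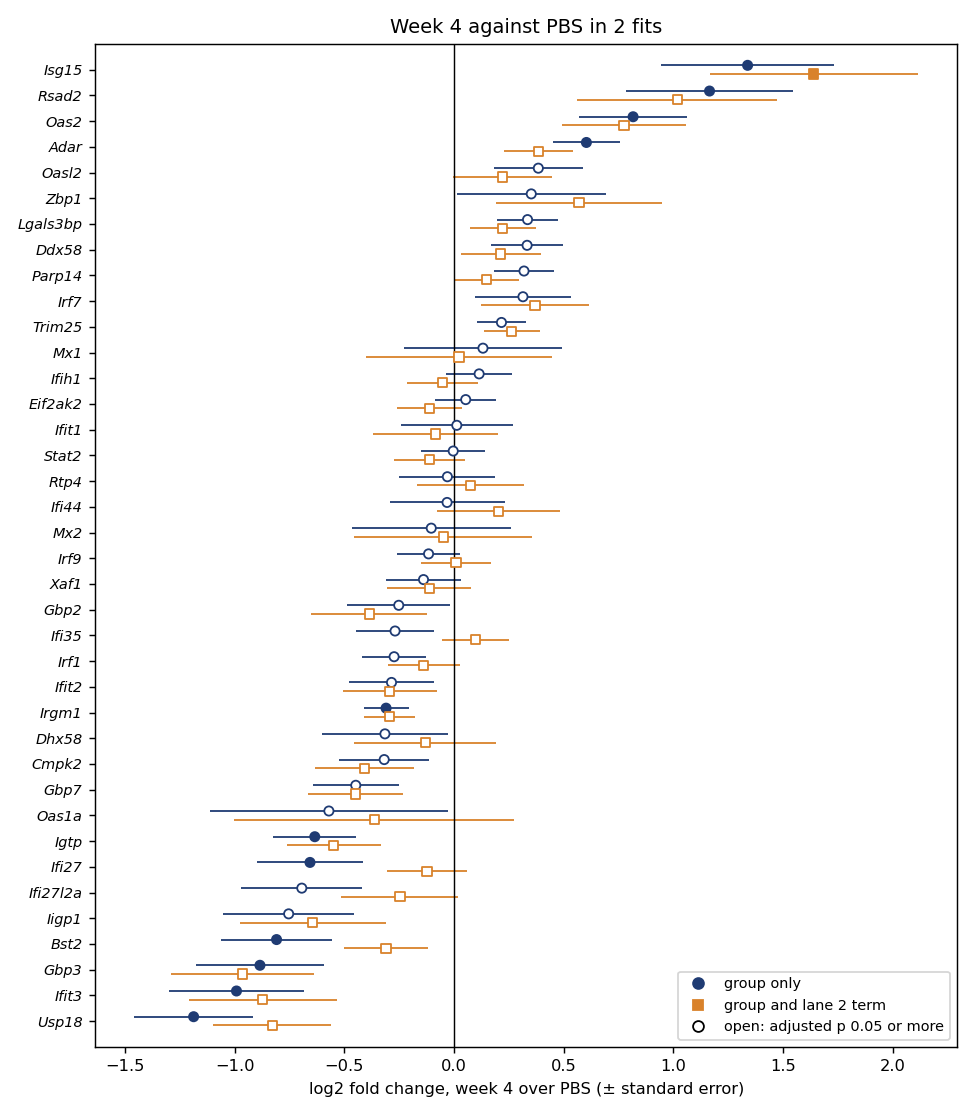
Log2 fold change of each of the 38 members, week 4 over PBS, with its standard error, in 2 fits: group alone (circles) and group with a lane 2 term (squares). Filled symbols passed an adjusted p of 0.05; there are 11 circles filled and 1 square, that of Isg15.

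Week 4 and week 1 share lanes 2 and 4, and their comparison was added after the data were examined. Week 4 against week 1 called 11 of 38 members, against 22.6% of all genes: Isg15, Rsad2, Oas2, Lgals3bp and Adar were higher and Gbp3, Gbp7, Iigp1, Usp18, Cmpk2 and Igtp were lower. In lanes 2 and 4 alone, with 8 week 4 libraries and 5 week 1 libraries and a lane term, 6 members were called, against 11.7% of all genes. These were Isg15 at 1.47, Rsad2 at 1.18, Oas2 at 0.87 and Lgals3bp (a secreted galectin-binding protein) at 0.49, with Gbp3 at -1.30 and Gbp7 at -0.85. In fits of all lanes that left out 1 library, those 6 calls held in 16 of 16. Usp18 was lost without week 4 replicate 5 (adjusted p of 0.0522 by edgeR), Igtp without week 1 replicate 7 (0.0556), Cmpk2 without week 4 replicate 4 or 5 (up to 0.0545) and Iigp1 without week 4 replicate 3, 4 or 5 or week 1 replicate 3, 5 or 7 (up to 0.0601). Adar was called in 6 of 16, those without week 4 replicate 4, 7 or 8 or week 1 replicate 5, 7 or 8, and reached 0.0885 in the others. Week 4 against week 2 called 4 members, against 23.6% of all genes, all higher: Rsad2, Isg15, Oas2 and Lgals3bp. In lanes 2 and 4 alone, with 8 week 4 and 3 week 2 libraries, it called 0, against 0.55% of all genes, with Rsad2 at 1.23, Isg15 at 1.32, Oas2 at 0.43 and Lgals3bp at 0.23. Of these 4 calls that of Rsad2 held in 15 of 15 fits that left out 1 library. That of Isg15 was lost without week 4 replicate 3 (1.11, adjusted p of 0.0553 by edgeR) and that of Oas2 without week 4 replicate 2 or 3 or week 2 replicate 1 or 6 (adjusted p up to 0.0862 by edgeR). Lgals3bp was called in 4 of 15 such fits, those without week 4 replicate 1, 7 or 8 or week 2 replicate 3, and reached an adjusted p of 0.0864 by edgeR in the others. Week 3 against week 1 called Isg15 at 2.31 and Rsad2 at 2.16, against 1.06% of all genes. Neither was called in a fit of these 2 groups alone (adjusted p of 0.0832 and 0.0994 by edgeR) or in lanes 2 and 4 alone, where Isg15 was 2.15 and Rsad2 1.87 with 4 week 3 and 5 week 1 libraries, against 0.0435% of all genes. These comparisons and those against PBS share libraries, so their values are given side by side and not as separate support.

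Week 4 against week 3 called 0 of 38 members with edgeR, against 3.51% of all genes, and DESeq2 called 1, Igtp, as lower. At an unadjusted p under 0.05 stood 9 members, a share near the 24.5% of all genes. Igtp came nearest, with a mean of 8.11 CPM at week 4 and 12.5 CPM at week 3, a log2 fold change of -0.62 ± 0.19 (SE) and an adjusted p of 0.0592 by edgeR. Isg15 averaged 4.39 ± 2.17 CPM at week 4 (SD, n = 8) and 8.39 ± 7.64 CPM at week 3 (SD, n = 7), a difference within the spread of week 3 (adjusted p of 0.131 by edgeR). Across all 5 groups the test for any difference called 10 of 38 members, against 21.9% of all genes: Isg15, Rsad2, Usp18, Oas2, Gbp7, Adar, Igtp, Gbp3, Lgals3bp and Cmpk2.

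Interferon ligands were almost absent from the counts. Of 21 interferon genes 18 had 0 reads in all 38 libraries, all 21 together had 7 reads, and the highest count in a library was 2, for Ifng, which encodes interferon gamma. Markers of T and NK cells, the main sources of interferon gamma, summed to 0.277 to 2.02 CPM over all libraries and none passed the filter. Of the 8 receptor chains and kinases tested, none was called at week 4 against PBS, beside 29.4% of all genes. Against week 1, 2 of the 8 were lower, beside 22.6% of all genes called in either direction. They were Ifngr2 (a chain of the interferon gamma receptor) at -0.39 and Jak2 (a kinase bound to that receptor) at -0.70. Jak2 alone was also lower than at week 2, at -0.68, beside 23.6% of all genes. Fits in shared lanes are not given for these 2 genes.

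Among 12 signal transducers and brakes, 3 were higher and 1 lower at week 4 than in PBS, beside the 15.3% of all genes that were higher and 14.1% that were lower. Stat3, the transducer of IL-6 family cytokines, had a log2 fold change of 1.22, and Pias1, a SUMO ligase that restrains STAT proteins, of 0.33. Irf2, a transcription factor that competes with IRF1, had a log2 fold change of 0.34 and was called in 4 of 16 fits that left out 1 library, with its lowest value of 0.22 without week 4 replicate 5. Socs1, a brake on JAK kinases, fell by 3.13, with medians of 0.136 CPM at week 4 and 0.58 CPM in PBS. PBS replicates 5 and 6 stood apart at 6.40 and 5.43 CPM of Socs1, while the other 6 PBS libraries lay at 0.269 to 0.62 CPM and overlapped week 4, at 0 to 0.618 CPM. Of 15 genes of nucleic acid sensing 5 were higher and none lower, among them Tmem173 (STING) at 0.97, Myd88 at 0.71, Tlr3 at 0.65 and Tbk1 at 0.42. With the lane 2 term these counts were 1 higher and 1 lower transducer and 2 higher sensing genes, beside 5.64% of all genes called in either direction. Without the lane 2 libraries they were 1 higher and 0 lower transducers and 0 sensing genes, beside 0.894% of all genes.

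Induced genes outside the 38 were counted by the interferon they are best known for, in lists chosen with earlier results of these data known. Of 48 other type I induced genes tested, 12 were higher and 1 lower at week 4, with a median log2 fold change of 0.12. The shares of all genes were 15.3% higher and 14.1% lower. Ifitm1, a membrane protein that blocks virus entry, had a log2 fold change of 2.91, at 2.75 to 9.59 CPM in week 4 libraries and 0.207 to 1.36 CPM in PBS, with no overlap. Ube2l6, which conjugates ISG15 to proteins, had a log2 fold change of 1.91, Plscr1 (a phospholipid scramblase) of 1.36 and Helz2 (a helicase) of 0.76. With the lane 2 term Ube2l6 was not called, at 1.70 and an adjusted p of 0.0694 by edgeR. Without the lane 2 libraries it was also not called, at 0.66 and an adjusted p of 0.711 by edgeR. Plscr1 was called with the lane 2 term only, and Ifitm1 and Helz2 in both fits. Of 32 other interferon gamma induced genes tested, 1 was higher and 8 lower, with a median of -0.22. The chemokine Cxcl9 fell by 1.87, Cd274 (PD-L1) by 1.43, the immunoproteasome subunit Psmb10 by 0.87 and B2m, the light chain of MHC class I, by 0.61. Cxcl9 was 0.104 to 0.782 CPM at week 4 and 1.02 to 3.34 CPM in PBS, and these ranges did not overlap. With the lane 2 term 6 of 48 type I genes were higher and 4 of 32 interferon gamma genes lower, beside 5.64% of all genes called in either direction. Without the lane 2 libraries 2 of 50 type I genes were higher and 0 of 33 interferon gamma genes lower, beside 0.894% of all genes. The difference between the lists was not tested.

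At week 3, 2 of the 48 other type I genes were higher than in PBS, beside 0.347% of all genes called in either direction. They were Ube2l6 and Isg20, named here after their values were seen. Ube2l6 was 165 CPM in week 3 replicate 6, 76.6 CPM in replicate 5 and 8.15 CPM in replicate 4, against 5.62 to 14.2 CPM in PBS, with a log2 fold change of 2.28 ± 0.47 (SE) and an adjusted p of 0.0134 by edgeR. Isg20, an exonuclease that degrades RNA, had a log2 fold change of 2.83 ± 0.54 (SE), with an adjusted p of 0.00702 by edgeR. The libraries of highest Ube2l6 were thus those of highest Isg15, Rsad2 and erythroid markers. Ube2l6 was 26.1 to 165 CPM in the lane 4 libraries of week 3 and 8.15 to 27.15 CPM in its lane 6 libraries. A fit with the erythroid level was not run, and week 3 fits with lane terms are not given for these 2 genes.

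The authors' deposited table of week 3 against PBS lists 1 member, Isg15, at a log2 fold change of 0.77. That is smaller than the 2.28 found here. The authors used DESeq2, and week 3 replicate 2 may be among their samples, so the sizes are not directly comparable. The authors' deposited table of week 4 against PBS lists 12 members, 4 higher and 8 lower, of which 11 were also called here, and the other is Iigp1 at -0.66. The authors' deposited table of week 4 against week 3 lists Igtp at -0.57, and their tables of weeks 1 and 2 list no member.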

How the data were processed

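RNA was taken with Trizol from frozen muscle and sequenced after an Illumina TruSeq library kit, per the labels' protocols. The authors made the deposited counts per gene with HISAT2 and HTSeq on GRCm38.p5, per the submitters' processing notes; versions and the strand setting are not given in the sources used here. The authors' deposited tables hold log2 fold changes and p-values from DESeq2, listing only genes past an adjusted p of 0.05.

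Reads in genes numbered 13356756 to 24801565 per library; reads assigned to no gene were left out of totals and fits. Counts were fitted with edgeR 4.0.16 (R 4.3.3): TMM, filterByExpr with a minimum count of 10, 1 quasi-likelihood fit of all 5 groups with group as the only factor, and Benjamini-Hochberg adjustment over all 14689 genes tested. A member counts as called at an adjusted p under 0.05. Fold changes have the later group on top. CPM uses TMM-scaled library sizes, and errors of means are SD. Names, positions and exon lengths come from GENCODE M21 (GRCm38). No library duplicated another. Replicates are numbered in the order of the series.

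On simulated counts of week 4 against PBS with 200 changed genes, the fit recovered 83% of those changed by 1 and 100% of those changed by 2 on the log2 scale, over 14549 genes. Of 14349 unchanged genes 8 were called. The simulation held no lane effect, and its changed genes had means above 1 CPM. These rates therefore do not cover lane differences or members below that level.

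Members, gene lists and marker lists were chosen with earlier results of these data known. In 2 of these lists 1 gene each is not reported here and was left out of counts and sums. Values or ranges over libraries are given for Isg15, Ifit1, Irf7, Stat2, Irf1, the 8 members of smallest p at week 4 against PBS, the 4 of smallest p at week 4 against week 3, the 2 of smallest p in each of weeks 1, 2 and 3 against PBS, and members singled out beside them. From each pathway list up to 4 genes of smallest p at week 4 are named. Week 4 against weeks 1 and 2 and week 3 against week 1 were added after the data were examined. Alternatives were RLE size factors, no low-count filter, DESeq2 1.42.0, lane terms, lanes left out, only shared lanes, only the 2 groups, 4 libraries left out (week 3 replicates 1 and 3 and week 2 replicate 6, which had the lowest shares of reads in genes, and week 1 replicate 7, whose 69.7% lay mid-range), and each library left out in turn.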

Additional observations from a re-analysis of the deposited data

Results flagged for a closer look

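In 15 members and 5 groups, 75 sets of libraries were checked for a single library far from the others by Dixon's criterion, and 3 were flagged, where chance flags about 1 in 20. Stat2 at week 3 had 19.6 CPM in replicate 3, against 9.17 to 12.2 CPM in the other libraries of that week. Irf1 at week 1 had 14.6 CPM in replicate 7, against 8.02 to 10.6 CPM in the others. Ifit3 at week 2 had 1.62 CPM in replicate 6, against 3.05 to 4.00 CPM in the others. Reads assigned to genes made up 44.5% in week 3 replicate 3 and 48.7% in week 2 replicate 6, the lowest shares of all libraries, and 69.7% in week 1 replicate 7, which is mid-range. Whether these shares bear on the values was not tested.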

How the results depend on the processing

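No paired analysis was possible because the labels share no replicate number between groups. Counts of called members moved with the treatment of lanes. At week 3 against PBS the 2 calls became 0 with a term for each lane, 0 with only the 2 groups and 0 in the shared lane 6, where Isg15 was 1.03 and Rsad2 0.45. At week 4 against PBS the 11 became 1 with a lane 2 term, 0 with a term for each lane and 0 without lane 2. Week 4 against week 1 went to 5, 0 and 6 with a term for each lane, without lane 2 and in shared lanes. Week 4 against week 2 went to 2 with the lane 2 term, 0 with each lane, 0 without lane 2, 0 in shared lanes and 2 without week 3 replicates 1 and 3, week 2 replicate 6 and week 1 replicate 7. Week 3 against week 1 went to 0 with only the 2 groups and 0 in shared lanes. The test for any difference gave 5 with no low-count filter and 2 with the lane 2 term, 2 with each lane and 2 without lane 2. DESeq2 called 1 at week 4 against week 3. The cause of these moves was not tested. Leaving out 1 library gave 0 to 0 calls at weeks 1 and 2, 1 (week 3 replicate 6) to 2 at week 3, and 9 to 15 at week 4. It gave 0 to 4 (week 4 replicate 7) for week 4 against week 3, 7 (week 4 replicate 5) to 13 against week 1, 1 (week 4 replicate 3) to 9 (week 4 replicate 7) against week 2, 2 to 3 for week 3 against week 1 and 3 (week 4 replicate 3 or 5) to 13 for any difference. The comparison of week 4 with week 3 also gave 3 without week 4 replicate 8 or week 3 replicate 8, and 1 without week 3 replicate 1 or 6 or PBS replicate 1 or 8. That with week 2 gave 2 without week 4 replicate 2 or week 2 replicate 1 or 6, and 7 without week 2 replicate 3. The test for any difference gave 4 to 6 without week 4 replicate 1, 2, 4 or 6, and 6 without week 1 replicate 3, 5 or 7.

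Of the named members, no called value changed sign; those that did were uncalled. Bst2 at week 4 against week 3 was 0.0528 in shared lanes. Ifit1 at week 4 against PBS was -0.0859 with the lane 2 term, -0.0071 with each lane and -0.16 to 0.1504 leaving out 1 library. Stat2 at week 4 against PBS was 0.0069 with RLE, 0.0095 unfiltered, 0.0062 with DESeq2, 0.0214 with each lane, 0.0003 without those 4 libraries and -0.0628 to 0.0664 leaving out 1 library. Irf1 was 0.0714 at week 3 and 0.0668 at week 4 with each lane, and 0.18 in shared lanes at week 3. Depth limits the lowest members most.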
